A study of Homo sapiens with 4 samples.

Results

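Major histocompatibility complex (MHC) class I molecules show peptides of the cell's own proteins to T cells. A heavy chain pairs with the light chain beta-2 microglobulin in the endoplasmic reticulum, where the transporter TAP, built from TAP1 and TAP2, brings in peptides from the cytosol and tapasin, the product of TAPBP, holds the empty molecule beside the transporter. In epithelial cells and carcinomas the level of these genes follows interferon signalling, and tumours often carry them at a low level. The 9 genes described here were chosen by symbol: the classical heavy chains HLA-B and HLA-C, the nonclassical heavy chains HLA-E, HLA-F and HLA-G, the light chain B2M, TAP1, TAP2 and TAPBP. Each had 1 row among the 25593 rows, or 25548 gene symbols, of an expression table, and all 9 reached 1 FPKM (fragments scaled to transcript length and to the mapped fragments of the library) in both libraries.

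The cells were FaDu, an established line from a squamous carcinoma of the hypopharynx. The Aza/TSA group received 5 µM of 5-aza-2'-deoxycytidine (Aza), which traps DNA methyltransferases, from day 1 to day 3, and 100 nM of trichostatin A (TSA), which inhibits histone deacetylases, on day 3. The control group is labelled DMSO only. The treatment protocol names DMSO as the vehicle of Aza and ethanol as that of TSA. Both agents were given together, so their effects cannot be told apart. Each group was 1 library of polyadenylated RNA, and no difference below has a replicate check or a p-value. A level is a mean over the culture, in which fewer expressing cells and less RNA per cell cannot be told apart.

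The FaDu columns summed to 516692 FPKM (Aza/TSA) and 491963 FPKM (DMSO), and the number of reads is unknown. Among 145 short RNA genes with values in both libraries, 37.9% of the ratios were ratios of whole numbers up to 6 (within 0.01%) when 1 read was taken to be worth 1.00 times as much FPKM in the treated library as in the DMSO library. Squamous markers were present in both libraries, with 6 genes summing to 588 FPKM (Aza/TSA) and 976 FPKM (DMSO). TP63, a regulator of squamous identity, was lower in treated cells, at 23.2 FPKM (treated) and 73.7 FPKM (DMSO). So were KRT5 (226 FPKM treated and 687 FPKM DMSO) and EPCAM (62.7 FPKM treated and 86.1 FPKM DMSO). The others were higher: KRT14 (147 FPKM treated and 49.8 FPKM DMSO), KRT6A (30.7 FPKM treated and 15.2 FPKM DMSO) and CDH1 (98.7 FPKM treated and 64.7 FPKM DMSO). The leukocyte marker PTPRC was 0.0385 FPKM in the treated library and 0.0513 FPKM in the DMSO library. The 5 leukocyte markers summed to 56.2 FPKM (treated) and 14.7 FPKM (DMSO), most of it CD68 (51.3 FPKM treated and 13.0 FPKM DMSO), the 3 fibroblast markers to 3.37 FPKM (treated) and 0.749 FPKM (DMSO), and the 3 endothelial markers to 3.73 FPKM (treated) and 0.943 FPKM (DMSO). The part of other cell types in the results was not tested. In a second line, UMSCC47 (3 µM Aza and 300 nM TSA), the values did not follow the gene names: the Spearman correlation of treated and DMSO values across symbols was 0.124, against 0.909 in FaDu, and B2M was listed at 0 (Aza/TSA) and 14.5 FPKM (DMSO). Those columns were not used for the members.

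The comparison of treated and DMSO cells asks how class I genes differ in level after DNA methylation and histone deacetylation are inhibited together. The heavy chains other than HLA-E, and TAP1, were 2.91 to 4.08 times as high in the treated library as in the DMSO library, while B2M and TAPBP were at nearly the same level in both. On the log2(FPKM + 1) scale, 5 of 9 members (HLA-B, HLA-C, HLA-F, HLA-G and TAP1) were at least 2-fold higher and 0 were at least 2-fold lower. Among the 13558 genes that reached 1 FPKM in the treated or the DMSO library, the share at least 2-fold higher was 16.1% and the share at least 2-fold lower 5.21%. The median log2 change was 1.29 over the members and 0.13 over all measured genes.

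**Figure D1:**
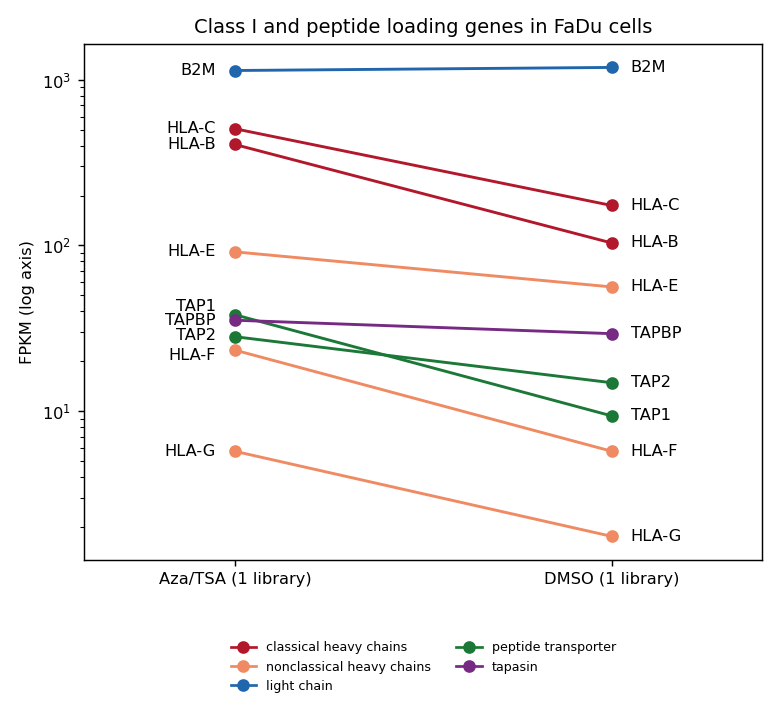
Level of each of the 9 genes in the Aza/TSA library (left) and the DMSO library (right), in FPKM on a log axis; each point is 1 library and colours mark the role. B2M lies near the same level in both, TAP1 lies above TAP2 in the Aza/TSA library and below it in the DMSO library, and the heavy chains keep their order.

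HLA-B and HLA-C carry the peptides that CD8 T cells read, and HLA-C is also a main ligand of inhibitory receptors on natural killer cells. HLA-B was 407 FPKM in the Aza/TSA library and 103 FPKM in the DMSO library, a ratio of 3.93 and a log2 change of 1.96. HLA-C was 506 FPKM in the Aza/TSA library and 174 FPKM in the DMSO library, a ratio of 2.91 and a log2 change of 1.53. HLA-C was thus the higher of both genes in either library, by 1.25 times in treated cells and 1.68 times in DMSO cells. By level, HLA-B ranked 187 among all symbols in the treated library and 604 in the DMSO library.

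The nonclassical heavy chains differed more among themselves. HLA-E, which shows leader peptides of other class I chains to receptors of natural killer cells, was 91.5 FPKM in the Aza/TSA library and 56.2 FPKM in the DMSO library, a ratio of 1.63, and was not called. HLA-F, a heavy chain that can reach the cell surface without peptide, was 23.3 FPKM in treated cells and 5.72 FPKM in DMSO cells, a ratio of 4.08 and a log2 change of 1.86. HLA-G, normally a product of the trophoblast that binds inhibitory receptors of leukocytes, was 5.72 FPKM in treated cells and 1.75 FPKM in DMSO cells, a ratio of 3.26 and a log2 change of 1.29. HLA-G was therefore the least abundant of the 5 heavy chains in both libraries, at 0.553% of their sum in treated cells and 0.513% in DMSO cells.

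Heavy chains are partly alike in sequence, which limits how reads are assigned. Of the 50-base windows of each longest coding transcript in GENCODE release 29, 2.54% (HLA-B), 6.71% (HLA-C), 5.13% (HLA-E), 1.70% (HLA-F) and 4.38% (HLA-G) also occurred in a transcript of another gene, on the reference alleles. The alleles of FaDu may differ from these. HLA-F also overlaps the antisense RNA HLA-F-AS1, which was 1.70 FPKM in treated cells and 0.495 FPKM in DMSO cells, and whether the counting used strand is not given in the sources used here.

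B2M, the light chain shared by all class I molecules, was 1138 FPKM in the Aza/TSA library and 1188 FPKM in the DMSO library, a ratio of 0.958. It ranked 60 by level among all symbols in the treated library and 46 in the DMSO library. The 5 heavy chains summed to 1034 FPKM in treated cells and 341 FPKM in DMSO cells, a ratio of 3.03. B2M was consequently 1.10 times the summed heavy chains in the treated library and 3.48 times in the DMSO library. These ratios are not corrected for GC content, which among the members was lowest in B2M (39.4%). With the GC trend given below subtracted, the log2 change was 0.35 for B2M, 1.27 for HLA-B and 0.79 for HLA-C. How far the ratio would then differ between the libraries was not tested. The 2 classical chains made up 88.3% of the heavy-chain sum in treated cells and 81.4% in DMSO cells, while HLA-E made up 8.85% in treated cells and 16.5% in DMSO cells.

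The subunits of the peptide transporter differed unequally. TAP1 was 38.2 FPKM in the Aza/TSA library and 9.35 FPKM in the DMSO library, a ratio of 4.08 and a log2 change of 1.92. TAP2 was 28.1 FPKM in the Aza/TSA library and 14.8 FPKM in the DMSO library, a ratio of 1.90 and a log2 change of 0.88. The level of TAP1 was 1.36 times that of TAP2 in treated cells and 0.631 times in DMSO cells. The order of both subunits in FPKM was thus opposite in the libraries. These ratios are not corrected for GC content, which was 57.5% for the TAP1 transcript and 49.1% for that of TAP2. With the GC trend given below subtracted, the log2 changes lay closer, at 1.30 (TAP1) and 0.79 (TAP2). Whether the order would then still be opposite was not tested. Of the windows of the TAP2 transcript, 35.8% also occurred in another gene model, against 1.07% for TAP1. Whether that model was in the annotation behind the FPKM is not given in the sources used here.

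TAPBP, the tapasin that bridges the transporter and the heavy chain, was 35.4 FPKM in the Aza/TSA library and 29.3 FPKM in the DMSO library, a ratio of 1.21. It was 0.927 times TAP1 in treated cells and 3.14 times TAP1 in DMSO cells. Against TAP2 it was 1.26 times in treated cells and 1.98 times in DMSO cells.

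GC content moved with these values. Across 7127 genes that reached 5 FPKM in each library, the log2 change had a Spearman correlation of 0.675 with the GC content of the longest transcript, a description across genes that share both libraries. The members' transcripts had a median GC content of 57.5%, against 47.8% over those genes, and they ranged from 39.4% (B2M) to 60.0% (HLA-C). With the GC trend subtracted, 3 of 9 members stayed at least 2-fold higher and 0 at least 2-fold lower, where 7.41% of 12526 genes were higher and 4.26% lower. Those 3 were HLA-B at a log2 change of 1.27, HLA-F at 1.22 and TAP1 at 1.30. HLA-C was then 0.79, HLA-G 0.67, TAP2 0.79 and HLA-E 0.22. The sign turned for 2 members that were not called: B2M was 0.35 after the subtraction and −0.06 before, and TAPBP was −0.37 after and 0.26 before. The members' median was 0.79 after the subtraction, against 0.02 over all genes with a GC value. The part of GC content in the result was not tested.

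**Figure D2:**
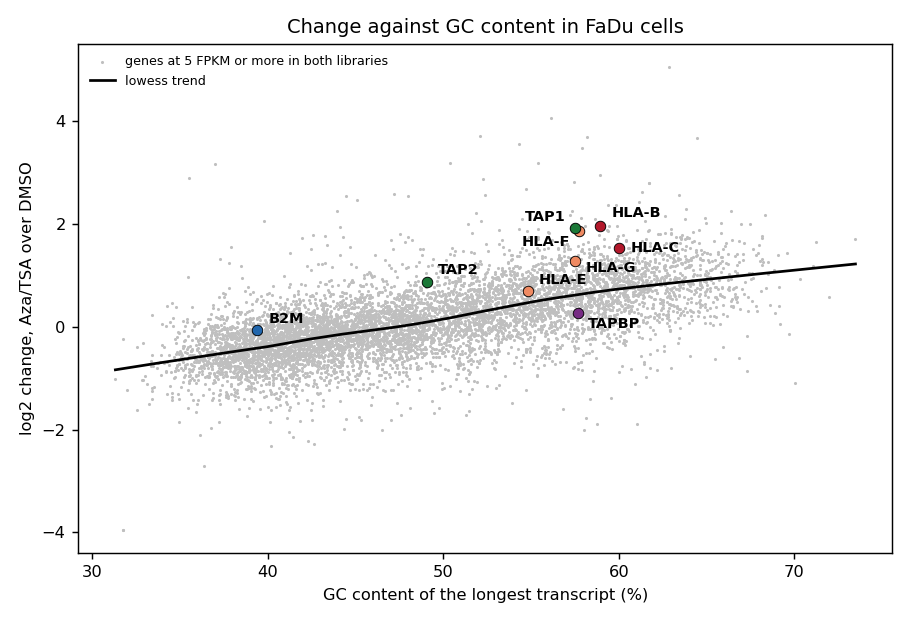
Log2 change (Aza/TSA over DMSO, FPKM + 1) against the GC content of the longest transcript for 7127 genes (grey), with the lowess trend (black) and the 9 members (coloured by role). HLA-B, HLA-C, HLA-E, HLA-F, HLA-G, TAP1, TAP2 and B2M lie above the trend and TAPBP below it.

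**Figure D3:**
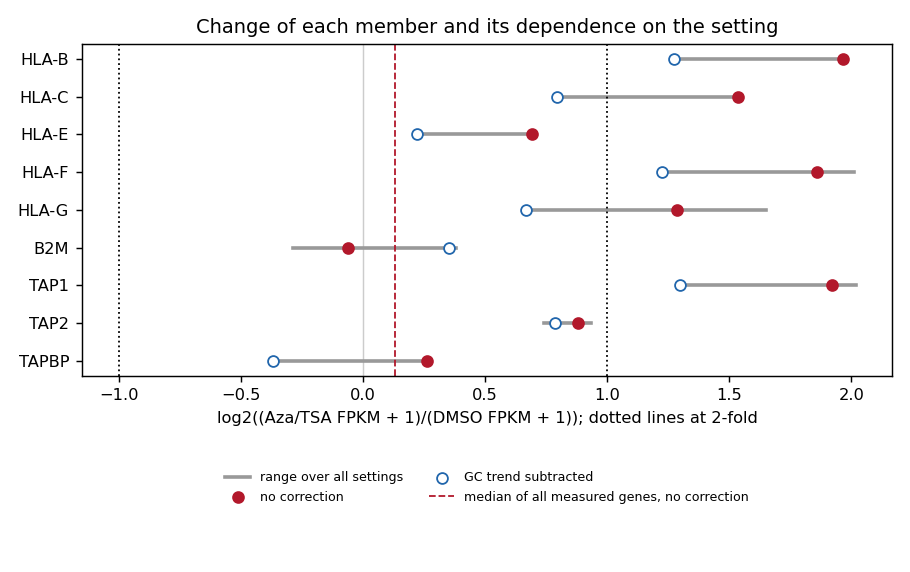
Log2 change of each member without correction (filled red) and with the GC trend subtracted (open blue), with grey bars from the lowest to the highest value over the settings tried; dotted lines mark 2-fold and the dashed line the median of all measured genes. HLA-B, HLA-F and TAP1 stay right of the 2-fold line over the whole bar, and the bars of B2M and TAPBP cross 0.

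Class I promoters are known for a kappaB enhancer, an interferon-stimulated response element and an SXY module that binds RFX, CREB or ATF, and NF-Y under the coactivator NLRC5. The 250 bases before the annotated start were read for 8 members from RefSeq (GRCh38.p14), with no entry for HLA-E. They are reference sequence and carry no measurement of these cells. The 5 below are shown because they belong to the heavy chain and the transporter subunit with the widest log2 changes (HLA-B and TAP1), the least abundant heavy chain (HLA-G) and the members near the same level in both libraries (B2M and TAPBP). Each is printed 5′ to 3′ toward the start, on the strand of the gene, with every motif match in capitals. The HLA-B window is chr6:31357180-31357429 (minus strand), that of HLA-G chr6:29827575-29827824 (plus), that of TAP1 chr6:32853705-32853954 (minus), that of TAPBP chr6:33314079-33314328 (minus) and that of B2M chr15:44711267-44711516 (plus). HLA-G has 3 entries, of which the nearest in sequence to HLA-B was taken, and TAP1 has 2, of which the first was taken.
HLA-B: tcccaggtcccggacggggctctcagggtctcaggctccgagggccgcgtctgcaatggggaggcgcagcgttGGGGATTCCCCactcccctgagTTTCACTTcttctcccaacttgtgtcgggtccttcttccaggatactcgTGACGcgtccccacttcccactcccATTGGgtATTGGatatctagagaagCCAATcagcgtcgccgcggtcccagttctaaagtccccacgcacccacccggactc
HLA-G: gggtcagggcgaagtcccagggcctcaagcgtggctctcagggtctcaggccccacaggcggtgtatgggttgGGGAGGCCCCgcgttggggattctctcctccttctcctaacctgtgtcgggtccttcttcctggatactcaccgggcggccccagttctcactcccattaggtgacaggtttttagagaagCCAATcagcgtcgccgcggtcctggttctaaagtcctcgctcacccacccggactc
TAP1: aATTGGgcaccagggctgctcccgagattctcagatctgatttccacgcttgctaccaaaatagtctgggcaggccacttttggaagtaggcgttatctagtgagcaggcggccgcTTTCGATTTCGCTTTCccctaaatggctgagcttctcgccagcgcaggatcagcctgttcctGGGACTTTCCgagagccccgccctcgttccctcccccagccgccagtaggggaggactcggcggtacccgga
B2M: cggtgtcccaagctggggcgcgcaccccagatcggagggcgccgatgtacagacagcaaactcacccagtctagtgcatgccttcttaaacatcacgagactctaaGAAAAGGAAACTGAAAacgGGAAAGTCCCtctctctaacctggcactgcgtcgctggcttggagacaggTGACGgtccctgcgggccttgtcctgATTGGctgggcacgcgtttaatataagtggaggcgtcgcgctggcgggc
TAPBP: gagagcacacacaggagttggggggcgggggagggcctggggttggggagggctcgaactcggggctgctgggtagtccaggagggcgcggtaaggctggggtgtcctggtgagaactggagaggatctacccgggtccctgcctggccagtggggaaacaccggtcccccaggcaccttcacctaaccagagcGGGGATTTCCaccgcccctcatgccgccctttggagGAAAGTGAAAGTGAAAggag

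**Figure D4:**
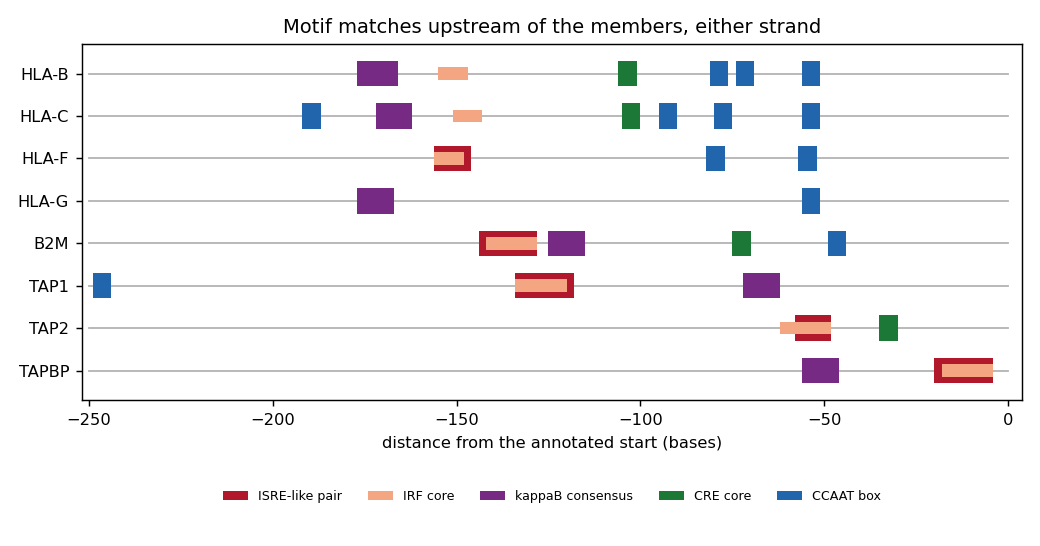
Motif matches on either strand in the 250 bases before the annotated start of 8 members; the horizontal axis is the distance from the start in bases and colours mark the motif. An ISRE-like pair lies in 5 of the 8 windows, B2M, TAPBP, TAP1, TAP2 and HLA-F among them.

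Motifs were searched on both strands. The ISRE-like pair GAAANNGAAA was found in 5 of 8 members (HLA-F, B2M, TAP1, TAP2 and TAPBP) and in 3.07% of 27305 upstream windows of the same length. The IRF core AANNGAAA, which overlaps the pair, was found in 7 of 8 members, all but HLA-G, and in 20.6% of windows. The kappaB consensus was found in 6 of 8 members and 9.57% of windows, the CRE core TGACG in 4 of 8 (HLA-B, HLA-C, TAP2 and B2M) and 21.7%, and CCAAT in 6 of 8 and 33.0%. B2M and TAPBP, near the same level in both libraries, each held the ISRE-like pair, as did TAP1 at a ratio of 4.08. HLA-G held neither the pair nor the IRF core and had a ratio of 3.26. With the GC trend subtracted, the log2 change was 0.67 for HLA-G and 0.35 for B2M. The part of these motifs in the result was not tested. A match is a description of the letters and not of a bound factor. The HLA-B window was 89.0% identical to that of HLA-C, 79.8% to that of HLA-F and 72.5% to that of HLA-G.

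CpG sites, the substrate of the methyltransferases that Aza traps, numbered 17 in the HLA-B window, 15 in that of HLA-C, 14 in that of HLA-G, 13 in that of HLA-F, 16 in that of TAP1, 19 in that of TAP2, 18 in that of B2M and 10 in that of TAPBP. The median over all windows was 11. DNA methylation was not measured here, and its part in the result was not tested.

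The counts in the lists and neighbours below stand beside all measured genes, of which 16.1% were at least 2-fold higher and 5.21% lower. With the GC trend subtracted, these shares were 7.41% and 4.26%. Partners of the members in the endoplasmic reticulum went in both directions. Of 8 loading and trimming genes, 0 were at least 2-fold higher and 1 lower, with a median log2 change of −0.08. The lower gene was ERAP2, an aminopeptidase that trims peptides to class I length, at 13.0 FPKM in treated cells and 35.3 FPKM in DMSO cells. Its relative ERAP1 was 15.0 FPKM (treated) and 17.5 FPKM (DMSO). CALR, the chaperone of the loading complex, was 324 FPKM in treated cells and 190 FPKM in DMSO cells, and BCAP31, which carries cargo out of the endoplasmic reticulum, was 132 FPKM (treated) and 68.8 FPKM (DMSO). Of 6 cytosolic peptidases none was called in either direction, and the widest changes were those of THOP1, an oligopeptidase, at 17.0 FPKM in treated cells and 10.7 FPKM in DMSO cells, and TPP2, a tripeptidyl peptidase, at 21.0 FPKM in treated cells and 26.5 FPKM in DMSO cells. LAP3, an aminopeptidase, was 20.9 FPKM in treated cells and 17.2 FPKM in DMSO cells.

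The proteasome cuts the peptides that TAP carries. Of 9 genes for immunoproteasome subunits, the activator PA28 and their constitutive counterparts, 1 was at least 2-fold higher and 0 lower, with a median of 0.83. That gene was PSMB9, the immunoproteasome subunit encoded beside TAP1, at 25.8 FPKM in treated cells and 11.6 FPKM in DMSO cells. Its neighbour PSMB8 was 61.8 FPKM (treated) and 34.3 FPKM (DMSO) and PSMB10, an immunoproteasome subunit on another chromosome, 35.7 FPKM (treated) and 18.4 FPKM (DMSO). The constitutive subunits PSMB5 (131 FPKM treated and 69.3 FPKM DMSO) and PSMB6 (183 FPKM treated and 99.9 FPKM DMSO) had ratios of 1.89 and 1.84, against 1.80 for PSMB8. With the GC trend subtracted, 0 of the 9 were called and the median was 0.37.

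Among 17 transcription regulators of class I genes, 3 were at least 2-fold higher and 1 lower (median 0.07). These counts are near the shares over all measured genes, 16.1% higher and 5.21% lower (median 0.13). The class I coactivator NLRC5 was 6.68 FPKM in treated cells and 2.10 FPKM in DMSO cells, a log2 change of 1.31, or 0.66 with the GC trend subtracted. IRF9 and STAT2, which carry the signal of type I and type III interferon to the nucleus, were 67.8 FPKM (IRF9) and 23.1 FPKM (STAT2) in treated cells and 19.5 FPKM (IRF9) and 11.0 FPKM (STAT2) in DMSO cells. IRF9 stayed at least 2-fold higher with the GC trend subtracted, at 1.24. RFXAP, a subunit of the RFX complex that binds the X box, was lower, at 1.52 FPKM in treated cells and 5.45 FPKM in DMSO cells. IRF1, a regulator induced by interferon gamma, was 13.5 FPKM (treated) and 12.9 FPKM (DMSO).

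Interferon genes themselves were at low levels. IFNE, an interferon of epithelia, was 1.31 FPKM in treated cells and 1.64 FPKM in DMSO cells. IFNB1 was listed at 0 in both libraries, and IFNG was listed at 0.178 FPKM in treated cells and 0 in DMSO cells. IFNL1, a type III interferon listed under its older symbol IL29, was 2.10 FPKM in treated cells and 0.183 FPKM in DMSO cells, a log2 change of 1.39 (0.82 with the GC trend subtracted). Of the 11 measured genes in a list of 18 interferons, receptors and kinases, IFNL1 was the 1 called higher and the interferon gamma receptor chain IFNGR1 the 1 called lower, at 29.3 FPKM in treated cells and 73.5 FPKM in DMSO cells. The second chain of that receptor, IFNGR2, was 52.6 FPKM (treated) and 31.9 FPKM (DMSO), and the kinase JAK2 was 3.67 FPKM (treated) and 7.62 FPKM (DMSO).

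**Figure D5:**
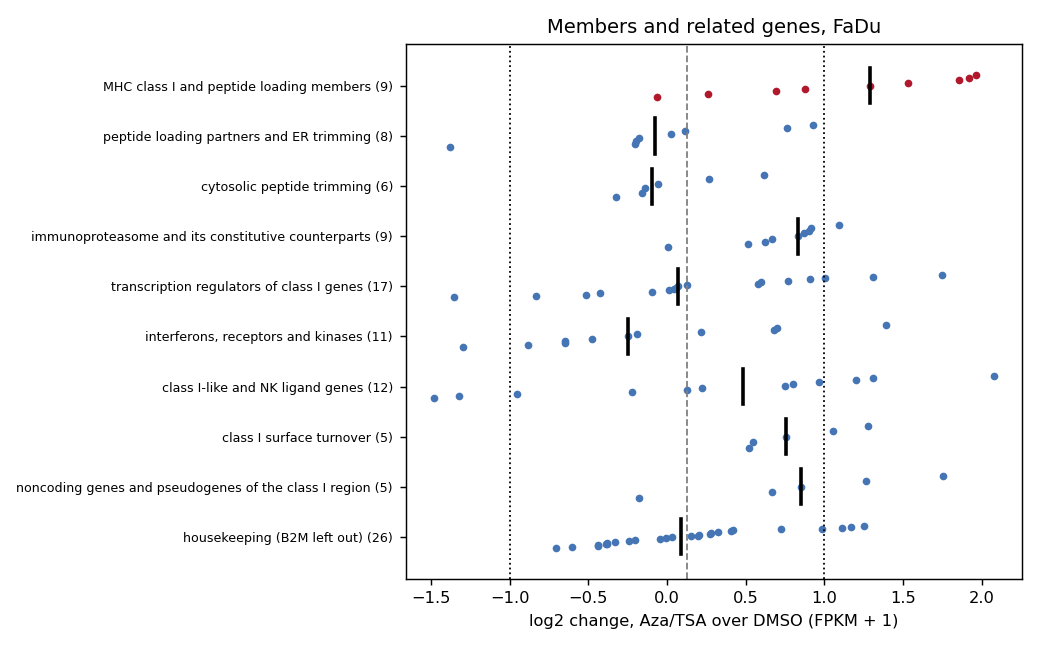
Log2 change (Aza/TSA over DMSO, FPKM + 1) of the measured genes in each list, with the number measured in brackets; each point is a gene, black bars are list medians, dotted lines mark 2-fold and the dashed line the median of all measured genes. The members' median is 1.29, and that of the loading partners is −0.08.

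Relatives of the heavy chains went in both directions. Of 12 measured class I-like and natural killer ligand genes, from a list of 18, 3 were at least 2-fold higher and 2 lower (median 0.48). With the GC trend subtracted 4 were higher and 2 lower, and the sign of the median turned, to −0.13. MICB, a ligand of the activating receptor NKG2D, was 15.1 FPKM in treated cells and 5.50 FPKM in DMSO cells, and PROCR, the protein C receptor with a class I-like fold, was 19.4 FPKM (treated) and 3.82 FPKM (DMSO). ULBP1, another NKG2D ligand, was lower at 3.11 FPKM in treated cells and 10.5 FPKM in DMSO cells, as was HFE, the iron regulator that pairs with B2M, at 2.40 FPKM (treated) and 7.50 FPKM (DMSO). Of 5 measured noncoding genes and pseudogenes of the class I region, 2 were at least 2-fold higher and 0 lower. They were the pseudogene HLA-H, at 43.8 FPKM in treated cells and 12.3 FPKM in DMSO cells, a relative of the heavy chains in sequence, and the noncoding RNA HCP5, at 10.9 FPKM (treated) and 3.95 FPKM (DMSO). After subtraction of the GC trend, the 2 called higher were HCP5 (log2 change 1.07) and HLA-F-AS1 (1.11). HLA-H was then 0.87 and not called. Of 5 measured genes that act on class I surface turnover, 2 were higher and 0 lower: MARCH9, a ubiquitin ligase that removes class I from the surface, at 3.85 FPKM in treated cells and 1.00 FPKM in DMSO cells, and HM13, the signal peptide peptidase that releases the leader peptides HLA-E binds, at 115 FPKM (treated) and 54.7 FPKM (DMSO). After subtraction of the GC trend 0 of the 5 were called, with MARCH9 at a log2 change of 0.58 and HM13 at 0.96.

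Genes beside the members in the order of the RefSeq annotation were compared as well, leaving out other heavy-chain genes. Of 13 neighbouring protein-coding genes 10 were measured, 3 were at least 2-fold higher and 0 lower, with a median log2 change of 0.86. With the GC trend subtracted, 1 of them (ZFP57) stayed at least 2-fold higher and 0 were lower, with a median of 0.41. The 3 called without the subtraction were PSMB9, RGL2 beside TAPBP at 23.1 FPKM in treated cells and 6.35 FPKM in DMSO cells, and ZFP57 beside HLA-F at 10.3 FPKM (treated) and 0.143 FPKM (DMSO). ZFP57 encodes a zinc-finger protein that keeps imprinted regions methylated. MICA, beside HLA-B, was 23.1 FPKM in treated cells and 12.8 FPKM in DMSO cells and was not called.

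Of 26 housekeeping genes, B2M left out, 3 were at least 2-fold higher and 0 lower, with a median log2 change of 0.09 (−0.05 with the GC trend subtracted) and ratios of treated to DMSO FPKM from 0.610 to 2.38. HLA-B, HLA-C, HLA-F, HLA-G and TAP1 had ratios above that range, and HLA-E, B2M, TAP2 and TAPBP lay within it. The highest housekeeping ratio was that of ACTB, at 1529 FPKM in treated cells and 641 FPKM in DMSO cells.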

How the data were processed

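Polyadenylated RNA of FaDu and UMSCC47 cells was sequenced from stranded libraries, 1 per group, per the labels' protocols. The authors deposited 1 table of FPKM per gene symbol and library, per the file headers. The submitters' processing notes name TopHat 1.3.2, Cufflinks 2.0.2 and the build hg19. Annotation, filters and scaling of one library to another are not given in the sources.

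From the deposited FPKM, 45 repeated rows were summed by symbol. The change was log2((treated FPKM + 1)/(DMSO FPKM + 1)), so changes of genes near 0 are understated. Genes at 1 FPKM or more in either library counted as measured, and a 2-fold difference on this scale was called. GC content and length were those of the longest GENCODE release 29 transcript (protein-coding where there was one), found for 92.4% of measured genes. That annotation is on another build than the files, so it gave no coordinates. The GC trend was fitted by lowess (fraction 0.3, statsmodels 0.14.6) over genes reaching 5 FPKM in each library, then subtracted. The fit was tested on simulated data. Promoters were read from RefSeq (GRCh38.p14), and identity came from global alignment with biopython 1.88.

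All columns were mapped to samples, and UMSCC47 was left out of the comparisons of genes. The members and lists were chosen with earlier results of these data known. By rule the text names all members, up to 4 measured genes per list with the widest change, neighbouring genes and, for 3 members, the 3 genes nearest in level. Other genes, among them ERAP1, PSMB8, IRF1, IFNB1, IFNG, MICA and the markers, were named after their values were seen. Alternatives were pseudocounts of 0.1 and 5, filters, TPM and housekeeping scaling, GC and length correction and the highest row per symbol.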

Additional observations from a re-analysis of the deposited data

How the results depend on the processing

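HLA-B, HLA-F and TAP1 were at least 2-fold higher under every setting tried, with log2 changes from 1.27 to 1.97, 1.22 to 2.01 and 1.30 to 2.02. HLA-E (0.22 to 0.70), TAP2 (0.74 to 0.93), B2M (−0.29 to 0.38) and TAPBP (−0.37 to 0.27) were called under none. HLA-C fell under 2-fold with GC correction (0.79) and with GC and length correction together (0.84), the last a setting chosen after seeing the data. HLA-G did so with GC correction (0.67), both corrections (0.71) and a pseudocount of 5 (0.67). The members' median was then 0.79, 0.76 and 0.74, and 3 members were higher with GC correction or both corrections. A pseudocount of 5 shrinks low genes by construction. Otherwise the cause was not tested.

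Over all genes, 928 were higher with GC correction, 940 with both corrections and 893 with a pseudocount of 5. There were 253 lower with a pseudocount of 5, 1182 with a pseudocount of 0.1 and 1152 with TPM scaling. GC correction moved the median of all measured genes by −0.11.

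In the related lists, a pseudocount of 5 left 0 proteasome genes higher, 1 transcription regulator higher and 0 lower, 1 class I-like gene higher and 0 lower, 1 noncoding gene higher, 0 interferon genes higher and 1 turnover gene higher. A pseudocount of 0.1 gave 2 transcription regulators lower, 5 class I-like genes higher, 2 interferon genes lower and a median of 1.44 over the noncoding genes. GC correction left 0 proteasome, turnover, housekeeping or interferon genes higher and 0 interferon genes lower. Length correction left 0 proteasome genes higher, housekeeping scaling left 1 turnover gene higher, and TPM scaling gave 2 interferon genes lower. A filter at 5 FPKM left 0 interferon genes and 1 turnover gene higher and gave a median of 1.27 over the noncoding genes. The median of the class I-like genes was 0.80 with that filter and 0.11 with no filter.

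No paired analysis was possible because each group had 1 library. FPKM give no read number, so the precision of low members such as HLA-G is unknown.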

Other observations

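The genes nearest to 3 members in log2(FPKM + 1) of both FaDu libraries are given as values, with a distance over 2 libraries only. For HLA-B they were RNU105A (410 FPKM in treated cells and 86.3 FPKM in DMSO cells), DRAP1 (355 FPKM treated and 117 FPKM DMSO) and ARHGDIA (325 FPKM treated and 115 FPKM DMSO), at distances of 0.26 to 0.36. For B2M they were RPL35 (1182 FPKM treated and 1181 FPKM DMSO), RPS27 (1042 FPKM treated and 1104 FPKM DMSO) and KRT17 (1341 FPKM treated and 1164 FPKM DMSO). For TAP1 they were WNT7B (36.1 FPKM treated and 8.94 FPKM DMSO), SERF2-C15ORF63 (35.7 FPKM treated and 8.88 FPKM DMSO) and C9orf16 (37.4 FPKM treated and 10.3 FPKM DMSO). Among all measured genes the log2 change of HLA-B lay at percentile 96.2, that of TAP1 at 96.1, that of HLA-F at 95.7, that of HLA-C at 93.5 and that of HLA-G at 90.3. With the GC trend subtracted these were 94.7, 94.9, 94.4, 89.5 and 86.5, while TAP2 lay at 89.4, against 80.0 before. HLA-E then lay at 65.8 (73.6 before), B2M at 74.1 (40.8 before) and TAPBP at 23.0 (55.9 before).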
